A study of Mus musculus with 4 samples.

Results

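The enzymes described here break down branched-chain amino acids, ketone bodies and a few related hydroxyacids and amino acids in the mitochondria of the heart. They were taken by name, as the 30 genes whose symbol in the deposited tables is on a written list of this pathway, and all 30 were found among the 55382 genes. The samples were hearts of 15-day-old mice: 2 KO libraries from NAT10-CKO animals, a conditional knockout of Nat10, and 2 WT libraries from NAT10-FF animals, named FF in the library names and WT in the titles. NAT10 acetylates cytidines of RNA, and the design asks which ribosome-protected mRNA fragments depend on it. Not given in the sources used here are the promoter that drives the deletion, the deleted exons, the strain and whether animals were pooled. About 100 mg of heart went into a library, and all libraries carry 1 batch label. All hearts were treated with cycloheximide at 100 µg/mL, an inhibitor that stops ribosomes from moving along mRNA.

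Leucine, isoleucine and valine share their first steps. An aminotransferase turns them into ketoacids, and the branched-chain ketoacid dehydrogenase, which a kinase switches off and a phosphatase switches on, commits them to breakdown. Each ketoacid then follows its own chain of mitochondrial enzymes: leucine ends in acetyl-CoA and a ketone body, and valine and isoleucine end in propionyl-CoA, which enters the tricarboxylic acid cycle through cobalamin-dependent steps. The heart burns ketone bodies through a short path of a dehydrogenase, a CoA transferase and a thiolase.

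For each gene and library the files give a footprint level in FPKM, which counts ribosome-protected fragments relative to the length of the gene and to the size of the library, and a translation efficiency (TE), which is a ratio. Dividing one by the other gave the RNA level behind the ratio, called the implied RNA level, for which every quotient had at most 6 digits. Depth in reads is unknown, since FPKM keeps no totals and low values did not step in whole reads. The targeted gene, Nat10, read 40.01 and 52.1 FPKM of footprints in the KO libraries against 77.3 and 73.9 FPKM in the WT libraries. That difference did not pass (limma, log2 -0.71, SE 0.30, adjusted p = 0.295), although both KO values were under both WT values. In implied RNA, Nat10 read 5.62 and 6.69 FPKM in KO against 7.02 and 8.34 FPKM in WT, which did not pass either (log2 -0.32, SE 0.25, adjusted p = 0.424). Mitochondrial tRNA genes took 57.0% and 48.9% of the summed FPKM in KO against 56.0% and 55.3% in WT, lowest in KO replicate 2, and the part of this share in the results was not tested. Across all 15031 tested genes the median log2 difference in footprints was 0.36 and in RNA, over 12529 genes, it was 0.22, so the values of single genes are also read against those medians. Nothing in the labels says that the 2 libraries of a group came from separate animals, so the spread behind each p-value is that among these libraries and may be technical.

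The label of the tissue was checked against markers. All 10 cardiomyocyte markers, among them the myosin heavy chain Myh6 and the titin gene Ttn, were found with none at 0, and their summed footprint level was 1.84e+05 and 1.90e+05 FPKM in KO against 2.80e+05 and 3.28e+05 FPKM in WT. The 10 fibroblast markers summed to 53222 and 68394 FPKM in KO against 24906 and 20036 FPKM in WT. The KO libraries held less cardiomyocyte and more fibroblast signal, with 0 of 10 cardiomyocyte and 0 of 10 fibroblast markers called by limma in footprints (3 and 9 at an unadjusted p under 0.05). In RNA the fibroblast markers Tcf21 (log2 1.68, adjusted p = 0.0291) and Postn (log2 2.13, adjusted p = 0.0192) and the macrophage markers C1qa (log2 1.04, adjusted p = 0.0463) and Lyz2 (log2 1.43, adjusted p = 0.0303) rose, the smooth muscle marker Smtn fell (log2 -1.40, adjusted p = 0.034), and 0 of 10 cardiomyocyte markers passed (3 at an unadjusted p under 0.05). Other markers of the same lists went the other way: 3 of 10 fibroblast and 1 of 10 macrophage markers had RNA log2 differences below 0. Of the 10 smooth muscle and pericyte markers, 3 had RNA log2 differences above 0. In footprints, endothelial markers summed to 7534 and 9773 FPKM in KO against 5816 and 6011 FPKM in WT. Macrophage markers summed in footprints to 1036 and 2213 FPKM in KO against 643 and 1092 FPKM in WT. The fat cell markers Adipoq, Plin1 and Cidec read 4.73, 13.3 and 6.68 FPKM of footprints in KO replicate 1 and were listed at 0 in the other libraries. Ucp1, the uncoupling protein of brown fat, read 12.6 FPKM in KO replicate 1, 0.32 FPKM in WT replicate 2 and was listed at 0 in the others. KO replicate 1 thus stood apart in fat signal in footprints. Those of the 10 epicardial, glial and fat markers with an RNA value summed in RNA to 14.6 and 15.2 FPKM in KO against 11.8 and 9.65 FPKM in WT. A TE of 0 leaves no RNA level, so these sums can cover different genes in each library. Only 3 of the 10 were tested in RNA. The part of these markers in the results below was not tested. In bulk hearts, fewer cells of a type and less RNA per cell cannot be told apart.

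Most of the pathway read lower in KO hearts, and 1 gene passed. Of the 30 genes, all of which passed the filter on low values, 1 fell in footprints by limma's test with Benjamini-Hochberg adjustment over all genes: Adhfe1, a mitochondrial enzyme that oxidises the hydroxyacid gamma-hydroxybutyrate. Of all tested genes 0.379% were called in either direction and 0.126% were called lower in KO. The median log2 difference of the 30 genes was -0.47, against 0.36 for all tested genes, and 27 of the 30 lay below the median of all genes. In 17 of the 30 both KO values were under both WT values (56.7%), an arrangement found in 12.1% of all tested genes. The opposite arrangement was found in 2 of the 30, Bdh1 and Aldh4a1, against 39.5% of all tested genes. The groups did not overlap, in either direction, in 51.7% of all tested genes.

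In the implied RNA level 3 of the 29 genes with a value fell, Adhfe1, Ivd and Bckdha, and none rose. All called genes made up 5.73% of the table, with 1.53% lower and 4.2% higher in KO. The median log2 difference of the 29 genes was -0.38, against 0.22 for all genes, and 26 lay below that median. Both KO values were under both WT values in 18 genes (62.1%), against 18.6% of all genes, and above them in 4 (13.8%), against 44.2% of all genes. Groups that did not overlap made up 62.8% of all genes. The members' median relative to all genes was -0.60 with all libraries and -0.56 without KO replicate 1, the library with fat signal in footprints. It was -0.68 without KO replicate 2, -0.43 without WT replicate 1 and -0.72 without WT replicate 2. In these fits the group with 1 library is assumed to vary like the other group. Neither a gain nor a loss of calls in them is read as a result about a gene. With no mean-variance trend in the fit, 0 members passed in RNA (adjusted p = 0.0814 for Adhfe1, 0.0760 for Ivd and 0.0930 for Bckdha), and each RNA call given below for Klf15, Aldh1b1, Slc7a5, Acss1, Slc16a3, Pycr1, Cpt2, Acads, Acadm and Ech1 was lost as well (adjusted p = 0.0545 to 0.0969). The remaining gene, Bdh1, has a TE of 0 in WT replicate 1 and so no RNA level there.

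In translation efficiency 0 of the 29 genes passed, and so did 0 of all 12529 genes (0% called by limma; 1 member, Ppm1k, and 759 of all genes had an unadjusted p under 0.05). On simulated data the TE test missed nearly all changed genes, so a count of 0 does not show that TE was alike in the groups. The median log2 difference was 0.02 over the 29 genes and 0.15 over all genes. For the 29 genes that have both values, the log2 differences in footprints and RNA correlated at r = 0.78 (all genes, r = 0.55, n = 12529). Adhfe1 lay far below the other members in both measures and weighs on their r, which was not computed without it. Genes are not independent replicates and all points share the same 4 libraries, so no p goes with these values. Both differences lay below the median of all genes for 26 of the 29 (89.7%), against 32.8% of all genes.

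**Figure D1:**
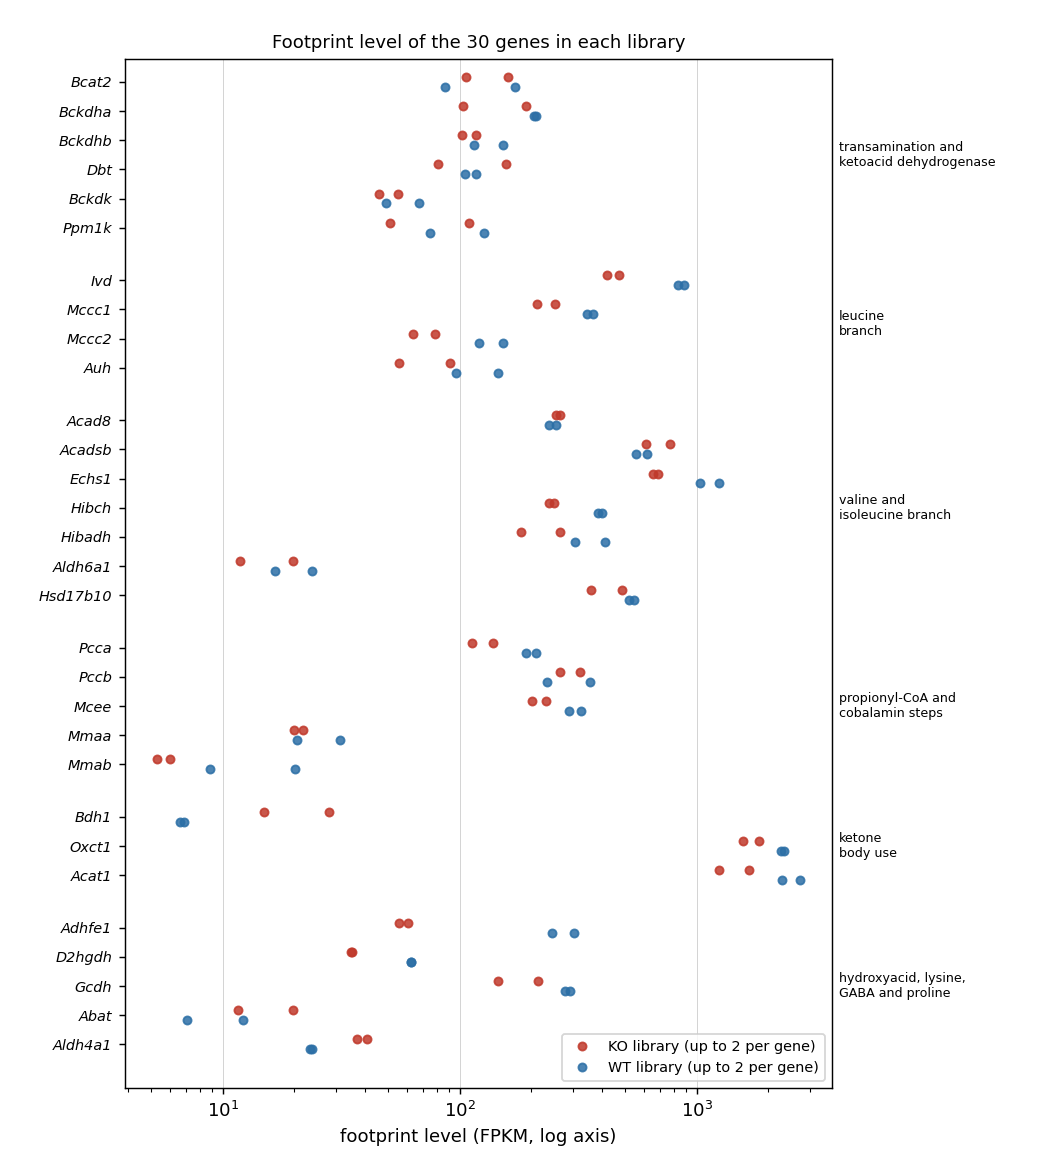
Footprint level in FPKM (log axis) of the 30 genes, grouped by their place in the pathway, with 1 point per library, KO above WT in each row. Adhfe1 shows the widest gap, with KO points at 55.3 and 60.7 FPKM against WT points at 246 and 304 FPKM, and Bdh1 and Aldh4a1 are the rows in which both KO points lie to the right of both WT points.

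Levels differed widely among the enzymes. In KO hearts the highest footprint levels were those of Oxct1, with 1576 and 1832 FPKM, and Acat1, with 1248 and 1672 FPKM; in WT hearts the same genes had 2326 and 2276 FPKM and 2299 and 2727 FPKM. The lowest footprint level in KO hearts was that of Mmab, at 5.98 and 5.28 FPKM, and in WT hearts that of Bdh1, at 6.90 and 6.60 FPKM. The median footprint level over the 30 genes was 105 and 151 FPKM in KO against 198 and 210.3 FPKM in WT, above the medians of all tested genes in each library (23.3 and 28.7 FPKM in KO, 20.4 and 17.3 FPKM in WT).

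Of the 6 genes of the first steps of branched-chain breakdown, none passed in footprints and 1 fell in RNA. Bckdha codes for the alpha subunit of the ketoacid dehydrogenase (chromosome 7, 25629852 to 25658782 in GRCm38.p6, as RefSeq places the symbol). The implied RNA level of the gene was 31.1 and 34.1 FPKM in KO against 60.7 and 63.7 FPKM in WT, so both KO libraries lay at about the same low level. The fall was 1.91-fold (log2 -0.93, SE 0.20, limma adjusted p = 0.047). The call was lost without WT replicate 1 (log2 -0.97, SE 0.45) or without WT replicate 2 (log2 -0.90, SE 0.45), as the SE grew. Its footprint level of 103 and 191 FPKM in KO and 205 and 210.4 FPKM in WT did not pass (log2 -0.56, SE 0.34, adjusted p = 0.426). The KO libraries differed from each other more than KO replicate 2 did from WT. Its TE was 3.31 and 5.60 in KO against 3.38 and 3.30 in WT, with KO replicate 2 alone standing high (log2 0.37, SE 0.49, adjusted p = 0.937). Without KO replicate 1 the footprint log2 difference was -0.12, and without KO replicate 2 it was -1.003.

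Bckdhb, the beta subunit that pairs with Bckdha, did not follow it in RNA. The implied RNA level of the gene was 31.4 and 19.9 FPKM in KO against 18.1 and 18.3 FPKM in WT (log2 0.46, SE 0.27, adjusted p = 0.298), and its footprints were 103 and 117 FPKM in KO against 115 and 152 FPKM in WT (log2 -0.26, SE 0.27, adjusted p = 0.635). The RNA was high in KO replicate 1 and near WT in KO replicate 2. Its TE was 3.26 and 5.91 in KO against 6.35 and 8.30 in WT (log2 -0.73, SE 0.49, adjusted p = 0.868), and both KO values were below both WT values. Dbt, the acyltransferase core of the same complex, gave footprint levels of 80.7 and 157 FPKM in KO around WT levels of 117 and 105 FPKM (log2 0.02, SE 0.37), so the groups overlapped. Bcat2, the mitochondrial aminotransferase, also overlapped, at 106 and 160.2 FPKM in KO against 171 and 87.2 FPKM in WT (log2 0.09, SE 0.41).

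The 2 regulators of the complex were read next, and neither passed. Bckdk, the kinase that inhibits it, had RNA levels of 30.1 and 26.9 FPKM in KO against 28.1 and 34.2 FPKM in WT (log2 -0.12, SE 0.21). Ppm1k, the phosphatase that activates it, had 2.699 and 4.48 FPKM in KO against 12.6 and 7.49 FPKM in WT (log2 -1.48, SE 0.37, adjusted p = 0.066). Both KO values of Ppm1k lay below both WT values. Its footprints overlapped between groups, at 50.7 and 109.5 FPKM in KO against 126 and 75.3 FPKM in WT (log2 -0.38, SE 0.46). The TE of Ppm1k was 18.8 and 24.4 in KO against 10.02 and 10.05 in WT, a log2 difference of 1.10 (SE 0.44) that did not pass over all genes (adjusted p = 0.806).

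All 4 genes of the leucine branch read lower in KO hearts in footprints and in RNA. In each, both KO values were under both WT values in both measures. This arrangement was found in 12.1% of all tested genes in footprints and in 18.6% in RNA. In footprints it also held in 25 of 26 fatty acid oxidation genes and in 24 of 27 genes of the tricarboxylic acid cycle and pyruvate oxidation. Ivd, isovaleryl-CoA dehydrogenase, the first enzyme after the ketoacid dehydrogenase (chromosome 2, 118861959 to 118882909 in GRCm38.p6), was the member that fell. The implied RNA level of the gene was 18.02 and 21.2 FPKM in KO against 58.1 and 42.4 FPKM in WT, a 2.54-fold fall (log2 -1.34, SE 0.24, adjusted p = 0.036). It missed the threshold without WT replicate 1 (log2 -1.12, SE 0.44). Its footprints were 468 and 420.01 FPKM in KO against 837 and 885 FPKM in WT, a log2 difference of -0.95 (SE 0.21) that did not pass (adjusted p = 0.155). Its TE, 26.0 and 19.8 in KO and 14.4 and 20.8 in WT, overlapped between groups.

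Downstream of Ivd, the 2 subunits of methylcrotonyl-CoA carboxylase and the hydratase Auh gave footprint differences of similar size, none of which passed. Mccc1, the biotin-bearing subunit, had 211 and 252 FPKM of footprints in KO against 365 and 343 FPKM in WT (log2 -0.61, SE 0.22, adjusted p = 0.260). Mccc2, the other subunit, had 63.3 and 78.8 FPKM in KO against 121 and 153 FPKM in WT (log2 -0.94, SE 0.28, adjusted p = 0.219). Auh had 55.7 and 90.9 FPKM in KO against 96.2 and 145 FPKM in WT (log2 -0.72, SE 0.37, adjusted p = 0.357). In RNA the log2 differences of these 3 genes ran from -0.75 for Mccc1 to -0.38 for Auh, with adjusted p from 0.091 to 0.260.

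The promoter windows of Ivd and Bckdha are shown because these genes fell in RNA. RefSeq's GRCm38.p6 table holds windows, 250 bases before to 50 bases after a transcript start of the gene, for 26 of the 30 genes and for 2 of the 3 that passed, Ivd and Bckdha. On both strands 5 motifs were searched for, and the letters found are in capitals. The promoter element known as the CCAAT box was searched under those letters. The element called the GC box, a common site of Sp family factors, was searched as GGGCGG. For the E-box, which basic helix-loop-helix proteins bind, the letters used were CACGTG. The TATA box of many regulated promoters was searched as TATAAA. For the core of an element bound by orphan nuclear receptors the letters used were AAGGTCA. The Ivd window lies on the plus strand of chr2:118861744-118862043, and the Bckdha window on the minus strand of chr7:25658712-25659011, both 5′ to 3′ along the gene. These windows are counted from positions 118861994 and 25658761, which lie inside the outer edges of the genes given above.
Ivd: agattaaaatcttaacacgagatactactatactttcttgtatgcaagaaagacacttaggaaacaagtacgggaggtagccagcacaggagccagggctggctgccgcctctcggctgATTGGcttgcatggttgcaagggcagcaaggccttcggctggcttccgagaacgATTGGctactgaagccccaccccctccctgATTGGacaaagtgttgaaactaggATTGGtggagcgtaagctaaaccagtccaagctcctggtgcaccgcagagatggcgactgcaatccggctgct
Bckdha: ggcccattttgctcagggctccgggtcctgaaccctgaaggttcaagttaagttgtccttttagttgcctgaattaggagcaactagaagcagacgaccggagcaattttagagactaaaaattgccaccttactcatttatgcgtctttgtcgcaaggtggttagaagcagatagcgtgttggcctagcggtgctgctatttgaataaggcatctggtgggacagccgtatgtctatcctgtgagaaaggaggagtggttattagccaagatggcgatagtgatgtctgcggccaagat
The Ivd window holds 4 copies of the CCAAT box on the opposite strand, which begin 131, 77, 47 and 23 bases before the transcript start from which the window is counted. The Bckdha window holds none of the 5 motifs. The windows of a chromosome that holds none of the 30 genes were left out of the counts that follow. Windows with a CCAAT box belong to 15 of the 26 members (56.2% of 32 member windows, against 37.4% of all 32851 windows counted). A GC box was found in 17 members (56.2% of member windows, against 35.7% of all). The E-box was found in Mccc2, in 3.12% of member windows against 7.15% of all windows. The TATA box was found in Bckdk, in 3.12% of member windows against 13.6%, and the nuclear receptor core in 0 of 32 member windows against 4.72% of all. A match is a description of the letters and not evidence of a bound site.

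The valine and isoleucine branch was split between enzymes that read lower in KO and enzymes near the WT level. None of its 7 genes passed in footprints, in RNA or in TE, and all 7 lay below the median of all genes in footprints and in RNA. Echs1, the short-chain enoyl-CoA hydratase that valine, isoleucine and fatty acids share, had 688 and 656 FPKM of footprints in KO against 1238 and 1031 FPKM in WT (log2 -0.75, SE 0.21, adjusted p = 0.208). Its RNA was 74.0 and 72.3 FPKM in KO against 119.6 and 118.95 FPKM in WT (log2 -0.71, SE 0.19, adjusted p = 0.078). The spread within a group was small beside the gap in both measures. Its RNA difference passed after median-ratio scaling (log2 -0.92, adjusted p = 0.0401).

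Hibch, which frees hydroxyisobutyrate from its CoA ester in valine breakdown, had 238 and 250.7 FPKM of footprints in KO against 383 and 397 FPKM in WT (log2 -0.67, SE 0.21, adjusted p = 0.228). Hibadh, the next enzyme of valine breakdown, had 181 and 266 FPKM in KO against 306 and 411 FPKM in WT (log2 -0.69, SE 0.29, adjusted p = 0.2998). Both enzymes were lower in both KO libraries than in both WT libraries. Hsd17b10, a hydroxyacyl-CoA dehydrogenase of isoleucine breakdown, also read lower in both KO libraries, at 358 and 486 FPKM in KO against 518 and 545 FPKM in WT (log2 -0.35, SE 0.24, adjusted p = 0.477).

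The acyl-CoA dehydrogenases of this branch gave no such gap. Acad8, of valine breakdown, had 265 and 255 FPKM of footprints in KO against 238 and 256 FPKM in WT (log2 0.07, SE 0.22, adjusted p = 0.888). Acadsb, of isoleucine breakdown, had 612 and 775 FPKM in KO against 553 and 617 FPKM in WT (log2 0.24, SE 0.23, adjusted p = 0.612), the highest log2 difference of the branch. Relative to the median of all genes both were slightly low, and median-ratio scaling turned their footprint log2 differences to -0.30 and -0.14. Their RNA levels were 18.4 and 15.99 FPKM in KO against 14.6 and 15.8 FPKM in WT for Acad8, and 26.9 and 28.97 FPKM in KO against 31.0 and 27.0 FPKM in WT for Acadsb. No difference from Ivd, the dehydrogenase of the leucine branch, was tested.

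Aldh6a1, the methylmalonate-semialdehyde dehydrogenase of valine breakdown, had the lowest TE of the 29 genes. The TE was 0.929 and 0.905 in KO against 0.534 and 0.437 in WT, while the median of the 29 genes was 7.76 and 8.67 in KO and 8.11 and 8.30 in WT. RNA levels of 12.8 and 21.8 FPKM in KO against 44.8 and 38.2 FPKM in WT gave a log2 difference of -1.31 (SE 0.29) that narrowly missed the threshold (adjusted p = 0.054). By limma it passed with median-ratio scaling (adjusted p = 0.0408) and with small RNA genes and unnamed models left out (adjusted p = 0.0490). It also passed with a block for replicate number (adjusted p = 0.0156), and it did not with no mean-variance trend (adjusted p = 0.103). Leaving out KO replicate 1 gave a log2 difference of -0.92, and leaving out KO replicate 2 gave -1.70. Footprints were 11.9 and 19.8 FPKM in KO and 23.9 and 16.7 FPKM in WT, which overlapped (log2 -0.36, SE 0.47, adjusted p = 0.712). The TE difference of 0.92 (log2, SE 0.61) did not pass (adjusted p = 0.867). In RefSeq the gene overlaps Bbof1, and the strand setting of the counting is not given. Reads of the 2 genes may thus not be separable. The same holds for Pcca, Echs1 and Gcdh, which each overlap 1 protein-coding gene. Some other members overlap only genes that are not protein-coding, among them Adhfe1 with 2610203C22Rik and Gm6161, and the limit extends to them.

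**Figure D2:**
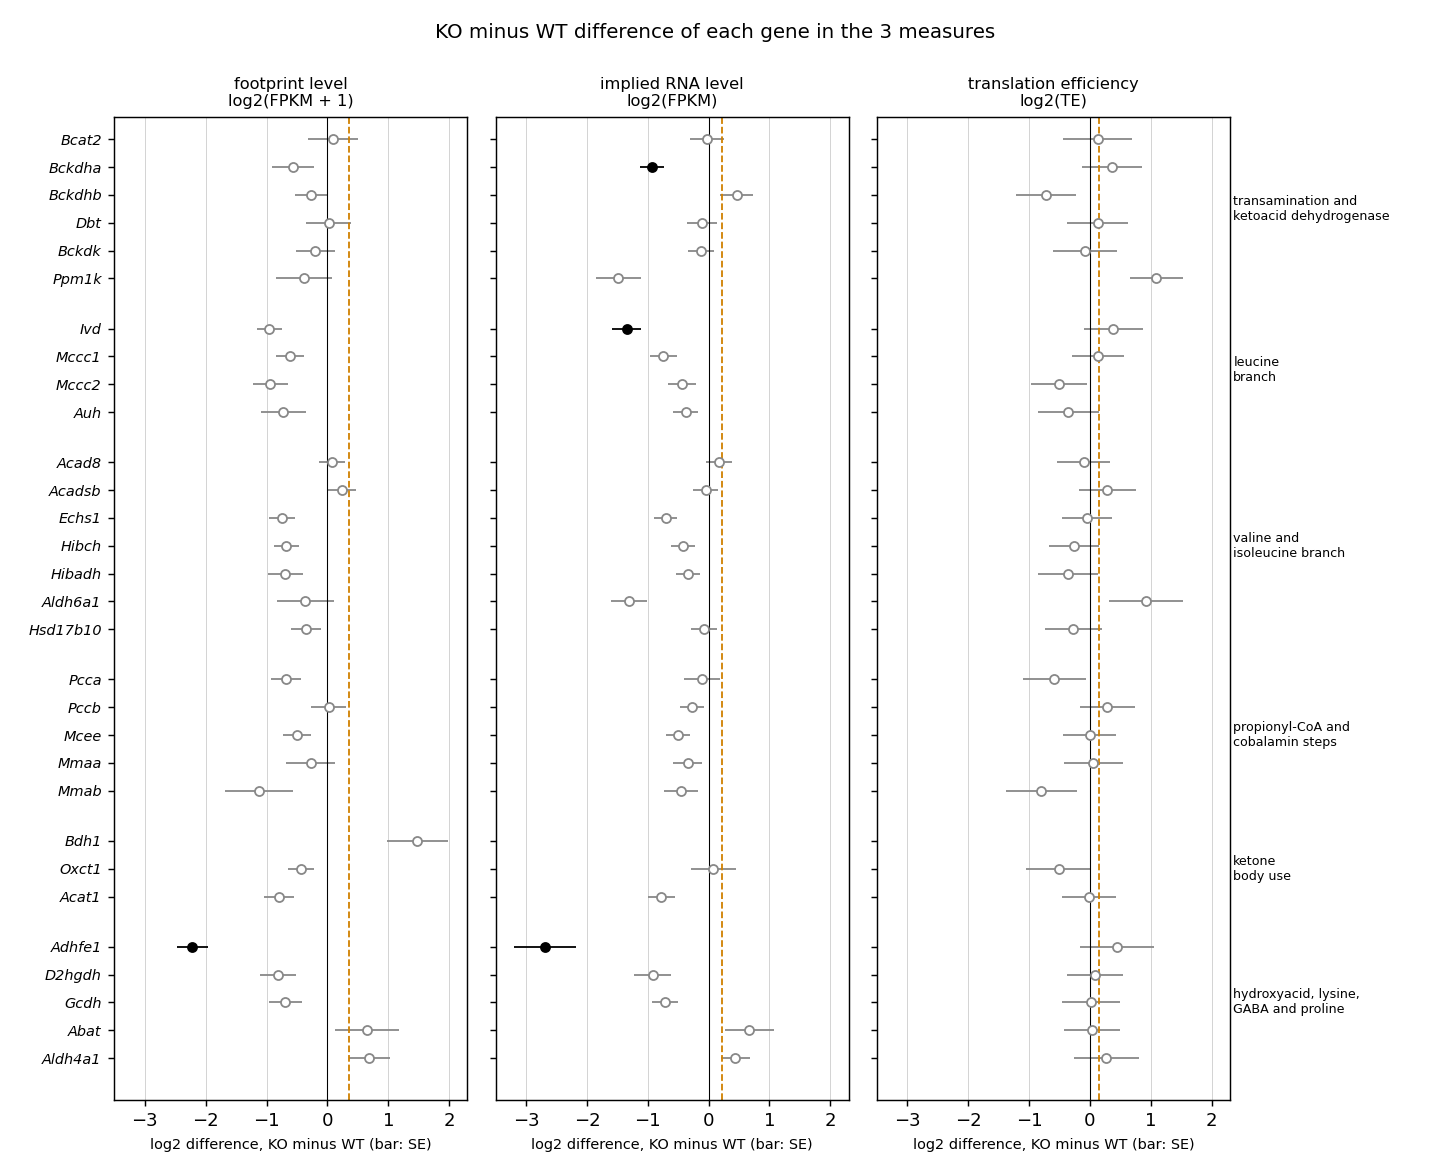
Log2 difference, KO minus WT, of each gene in footprints, implied RNA and TE, with bars of 1 SE from limma; filled points passed at an adjusted p under 0.05, and the dashed line marks the median of all tested genes. Filled points are Adhfe1 in footprints and Adhfe1, Ivd and Bckdha in RNA, all left of 0, and no point is filled in TE.

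Of the 5 genes that carry propionyl-CoA into the tricarboxylic acid cycle, none passed in footprints, RNA or TE. Pcca and Pccb, the alpha and beta subunits of propionyl-CoA carboxylase, read differently from each other in footprints. Pcca had 138 and 112 FPKM in KO against 191 and 210.2 FPKM in WT (log2 -0.68, SE 0.25, adjusted p = 0.258), with both KO libraries lower. Pccb had 265 and 324 FPKM in KO against 356 and 235 FPKM in WT (log2 0.02, SE 0.29, adjusted p = 0.977), with the groups overlapping. In RNA it was Pccb that separated the groups, at 36.8 and 34.6 FPKM in KO against 44.0 and 42.04 FPKM in WT (log2 -0.27, SE 0.19, adjusted p = 0.391), while Pcca overlapped at 13.01 and 22.8 FPKM in KO against 19.1 and 18.0 FPKM in WT.

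Mcee, the epimerase of methylmalonyl-CoA, gave the same log2 difference in footprints and RNA. Its footprints were 231 and 202 FPKM in KO against 289 and 325 FPKM in WT (log2 -0.50, SE 0.23, adjusted p = 0.321), and its RNA was 43.3 and 44.9 FPKM in KO against 60.4 and 64.5 FPKM in WT (log2 -0.50, SE 0.19, adjusted p = 0.151). Mmab, which makes the cobalamin cofactor of the mutase, had 5.98 and 5.28 FPKM of footprints in KO against 20.1 and 8.83 FPKM in WT (log2 -1.12, SE 0.57, adjusted p = 0.355), the lowest log2 difference of this group. The WT libraries of Mmab differed by more than the KO libraries did. Mmaa, a chaperone that loads the cofactor, had 19.9 and 21.8 FPKM in KO against 31.4 and 20.6 FPKM in WT (log2 -0.27, SE 0.40), which overlapped.

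In ketone body use, the 2 abundant enzymes read lower in KO hearts and the dehydrogenase at the entry read higher, and none of the 3 passed. Oxct1, the CoA transferase that activates acetoacetate, had 1576 and 1832 FPKM of footprints in KO against 2326 and 2276 FPKM in WT (log2 -0.44, SE 0.21, adjusted p = 0.345). Acat1, the thiolase that splits acetoacetyl-CoA and also closes isoleucine breakdown, had 1248 and 1672 FPKM in KO against 2299 and 2727 FPKM in WT (log2 -0.79, SE 0.25, adjusted p = 0.226). In both genes the KO libraries lay below the WT libraries. The RNA of Acat1 was 71.6 and 94.4 FPKM in KO against 144 and 139 FPKM in WT (log2 -0.78, SE 0.22, adjusted p = 0.085). The RNA of Oxct1 was 101 and 123 FPKM in KO, between the WT values of 156 and 71.7 FPKM. The TE of Oxct1 was 15.5 and 14.9 in KO against 14.9 and 31.8 in WT, with WT replicate 2 alone standing high.

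Bdh1, the dehydrogenase that turns hydroxybutyrate into acetoacetate, had 15.0 and 28.1 FPKM of footprints in KO against 6.90 and 6.60 FPKM in WT. Both KO libraries lay above both WT libraries, and the log2 difference of 1.48 (SE 0.50) was the highest of the 30 genes, but it did not pass (adjusted p = 0.243). The implied RNA level of the gene was 2.22 and 1.23 FPKM in KO against 0.223 FPKM in WT replicate 2, with no value in WT replicate 1, so RNA and TE were not tested. The level of Bdh1 in WT was far below those of Oxct1 and Acat1 on the same FPKM scale.

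The hydroxyacid and amino acid enzymes held the deepest fall, and 2 of the 5 read higher in KO in RNA. Adhfe1 (chromosome 1, 9547948 to 9577970 in GRCm38.p6) had 55.3 and 60.7 FPKM of footprints in KO against 246 and 304 FPKM in WT. The groups were far apart and the libraries of each group close (log2 -2.22, SE 0.26, limma adjusted p = 0.041). No gene of the table passed in footprints when any single library was left out, and the adjusted p of Adhfe1 was then 0.299 without KO replicate 1, 0.443 without KO replicate 2, 0.447 without WT replicate 1 and 0.666 without WT replicate 2, at log2 differences of -2.37 to -2.07. In RNA it had 2.25 and 7.17 FPKM in KO against 26.5 and 25.2 FPKM in WT, a 6.44-fold fall (log2 -2.69, SE 0.51, adjusted p = 0.041). Leaving out KO replicate 1 gave -1.85, leaving out KO replicate 2 gave -3.52, and with no mean-variance trend the call was lost (adjusted p = 0.0814). The TE was 24.6 and 8.46 in KO against 9.27 and 12.1 in WT, high in KO replicate 1 alone, and its log2 difference of 0.45 (SE 0.60, adjusted p = 0.937) was -0.32 without KO replicate 1.

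D2hgdh, which oxidises D-2-hydroxyglutarate and is thought to take up a product of the ADHFE1 reaction, had 34.7 and 35.1 FPKM of footprints in KO against 62.4 and 62.3 FPKM in WT. The libraries of each group were nearly equal, and the log2 difference of -0.82 (SE 0.30) did not pass over all genes (adjusted p = 0.258). Its RNA was 3.46 and 5.64 FPKM in KO against 8.56 and 8.20 FPKM in WT (log2 -0.92, SE 0.30, adjusted p = 0.113). Gcdh, the glutaryl-CoA dehydrogenase of lysine and tryptophan breakdown, had 215 and 145 FPKM of footprints in KO against 280 and 291 FPKM in WT (log2 -0.69, SE 0.27, adjusted p = 0.280). Its RNA of 9.10 and 9.04 FPKM in KO against 13.6 and 16.3 FPKM in WT separated the groups as well (log2 -0.72, SE 0.22, adjusted p = 0.1003).

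Aldh4a1, which completes proline breakdown, read higher in KO: its footprints were 40.6 and 36.9 FPKM in KO against 23.4 and 23.8 FPKM in WT (log2 0.69, SE 0.34, adjusted p = 0.347). Its RNA was 16.1 and 19.7 FPKM in KO against 14.7 and 11.7 FPKM in WT (log2 0.44, SE 0.24, adjusted p = 0.263). Both KO libraries lay above both WT libraries in both measures. Abat, the aminotransferase of the transmitter GABA, overlapped in footprints, at 19.8 and 11.6 FPKM in KO against 12.2 and 7.10 FPKM in WT (log2 0.65, SE 0.52, adjusted p = 0.541). In RNA it had 1.89 and 1.17 FPKM in KO against 0.960 and 0.915 FPKM in WT (log2 0.67, SE 0.40, adjusted p = 0.303).

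**Figure D3:**
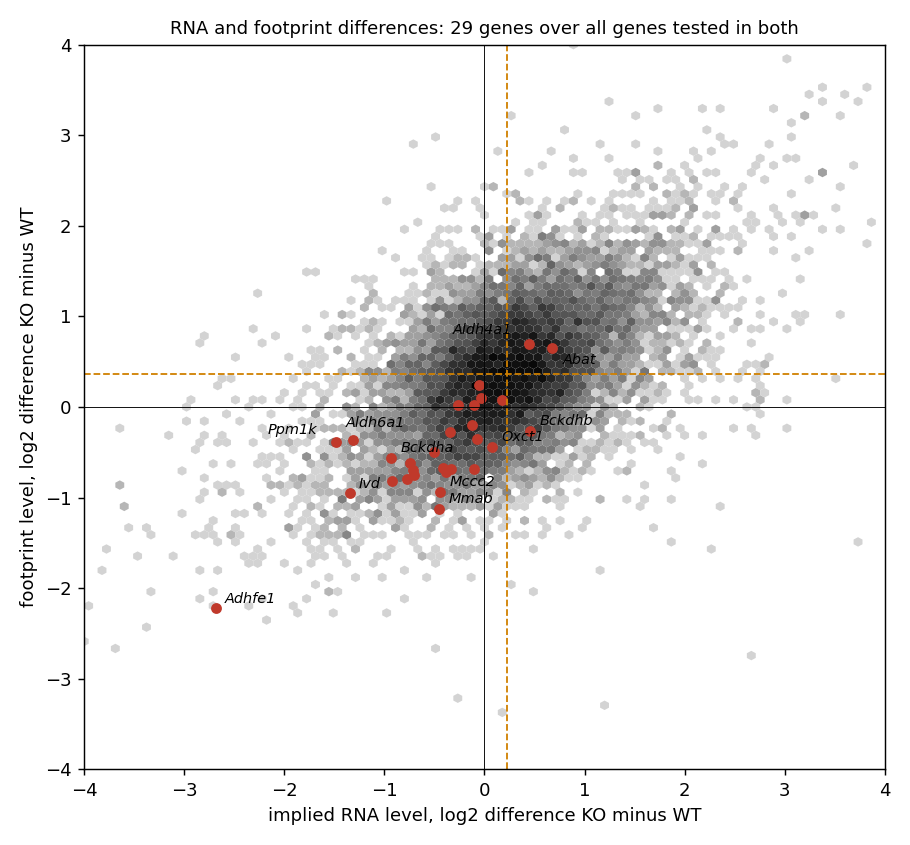
Log2 difference, KO minus WT, in implied RNA (horizontal) and in footprints (vertical) for the 29 genes with both values (red points, some named) over all 12529 genes (grey, darker where more genes lie; 36 genes lie beyond the limits of the axes at 4), with dashed lines at the medians of all genes. Adhfe1 lies at -2.69 and -2.22, apart from the other red points, and 26 of the 29 lie below and left of both dashed lines.

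Other genes of these pathways showed what surrounds the 30. Of 19 further genes of branched-chain uptake and breakdown, none passed in footprints. In RNA 1 rose and 2 fell (15.8%, against 5.73% of all tested genes in either direction). Klf15, a transcription factor known to control branched-chain breakdown genes in heart and muscle, fell to 5.09 and 4.87 FPKM of RNA in KO, against 11.3 and 10.9 FPKM in WT (log2 -1.16, adjusted p = 0.043). Its call was lost without WT replicate 1 (log2 -1.13, SE 0.46) or WT replicate 2 (log2 -1.19, SE 0.46). Its footprints of 2.74 and 4.28 FPKM in KO and 2.84 and 4.38 FPKM in WT overlapped. Aldh1b1, a mitochondrial aldehyde dehydrogenase, fell to 6.25 and 6.53 FPKM of RNA in KO, against 16.1 and 18.8 FPKM in WT (log2 -1.45, adjusted p = 0.029), and its footprint log2 difference of -1.22 was the lowest of this list. The amino acid transporter Slc7a5 rose in RNA, to 9.73 and 7.79 FPKM in KO, against 2.14 and 3.05 FPKM in WT (log2 1.77, adjusted p = 0.031). Bcat1, the cytosolic counterpart of Bcat2, read 28.8 and 46.9 FPKM of footprints in KO against 6.76 and 5.90 FPKM in WT (log2 2.37, adjusted p = 0.135). Its gap was the widest of the list and it did not pass over all genes; with small RNA genes and unnamed models left out of the test it did (adjusted p = 0.0475), while Aldh1b1 did not (adjusted p = 0.0755).

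Of 10 tested genes of ketone synthesis and transport, none passed in footprints. Acss1, the mitochondrial acetyl-CoA synthetase, fell in RNA (13.5 and 30.6 FPKM in KO against 76.1 and 63.6 FPKM in WT, log2 -1.78, adjusted p = 0.049) and had the lowest footprint log2 difference of the list (-1.47, adjusted p = 0.150; 0.0389 with small RNA genes and unnamed models left out). Leaving out KO replicate 1 turned its RNA difference to -1.19, and leaving out KO replicate 2 to -2.36. Slc16a3, a monocarboxylate transporter, rose in RNA (18.6 and 6.88 FPKM in KO against 1.77 and 1.09 FPKM in WT, log2 3.02, adjusted p = 0.032), and its footprint log2 difference of 2.72 did not pass (adjusted p = 0.185). KO replicate 1 was the higher in RNA, and the RNA difference of Slc16a3 was 2.31 without it and 3.74 without KO replicate 2. Its footprint difference moved the other way, to 3.75 without KO replicate 1 and 1.68 without KO replicate 2.

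Of 19 tested genes that handle hydroxyacids, lysine, proline, glutamate and GABA, none passed in footprints. In RNA 1 of 17 passed (5.88%, against 5.73% of all tested genes). Etfa, Etfb, Etfdh and Idh2 of this list are also on the lists of neighbouring pathways below. Pycr1, which makes proline, rose in RNA to 7.88 and 4.52 FPKM in KO, against 1.03 and 1.60 FPKM in WT (log2 2.22, adjusted p = 0.036), and its footprint log2 difference of 1.84 was the highest of the list. Without KO replicate 1 its RNA did not pass (log2 1.82, SE 0.41). Etfdh, which passes electrons of the acyl-CoA dehydrogenases to ubiquinone, had the lowest, with 1487 and 1850 FPKM of footprints in KO against 3708 and 4354 FPKM in WT (log2 -1.28, adjusted p = 0.124; 0.0259 with small RNA genes and unnamed models left out).

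The median footprint differences of neighbouring gene lists are given for scale only, since no difference between lists was tested. Relative to the median of all genes the 30 genes lay at -0.83, 26 fatty acid oxidation genes at -1.35, 27 genes of the tricarboxylic acid cycle and pyruvate oxidation at -1.01 and 20 general mitochondrial genes (channels, import and cristae) at -0.68. In RNA the same medians were -0.60, -1.14, -0.74 and -0.15, the last over 19 genes. In fatty acid oxidation Cpt2, a carnitine palmitoyltransferase, fell in footprints, to 308 and 262 FPKM in KO, against 1020.4 and 1148 FPKM in WT (log2 -1.93, adjusted p = 0.041). Cpt2, the acyl-CoA dehydrogenases Acads and Acadm and the isomerase Ech1 fell in RNA, at log2 differences of -1.55, -0.96, -1.06 and -1.30 (adjusted p = 0.036, 0.044, 0.046 and 0.035). The RNA calls of Acads, Acadm and Ech1 were lost without WT replicate 1, at log2 differences of -0.97, -1.12 and -1.40. They were also lost without WT replicate 2, at -0.95, -1.01 and -1.20. The footprint call of Cpt2 was lost when any 1 library was left out, at log2 differences of -2.04 to -1.81. With small RNA genes and unnamed models left out, Ech1 passed in footprints too (adjusted p = 0.0450). Cardiomyocyte markers, whose summed footprints were 0.61 times the WT level, had a median of -1.02 relative to all genes in footprints and -0.81 in RNA. The general mitochondrial genes summed to 0.74 times the WT level in footprints and 0.93 times in RNA.

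**Figure D4:**
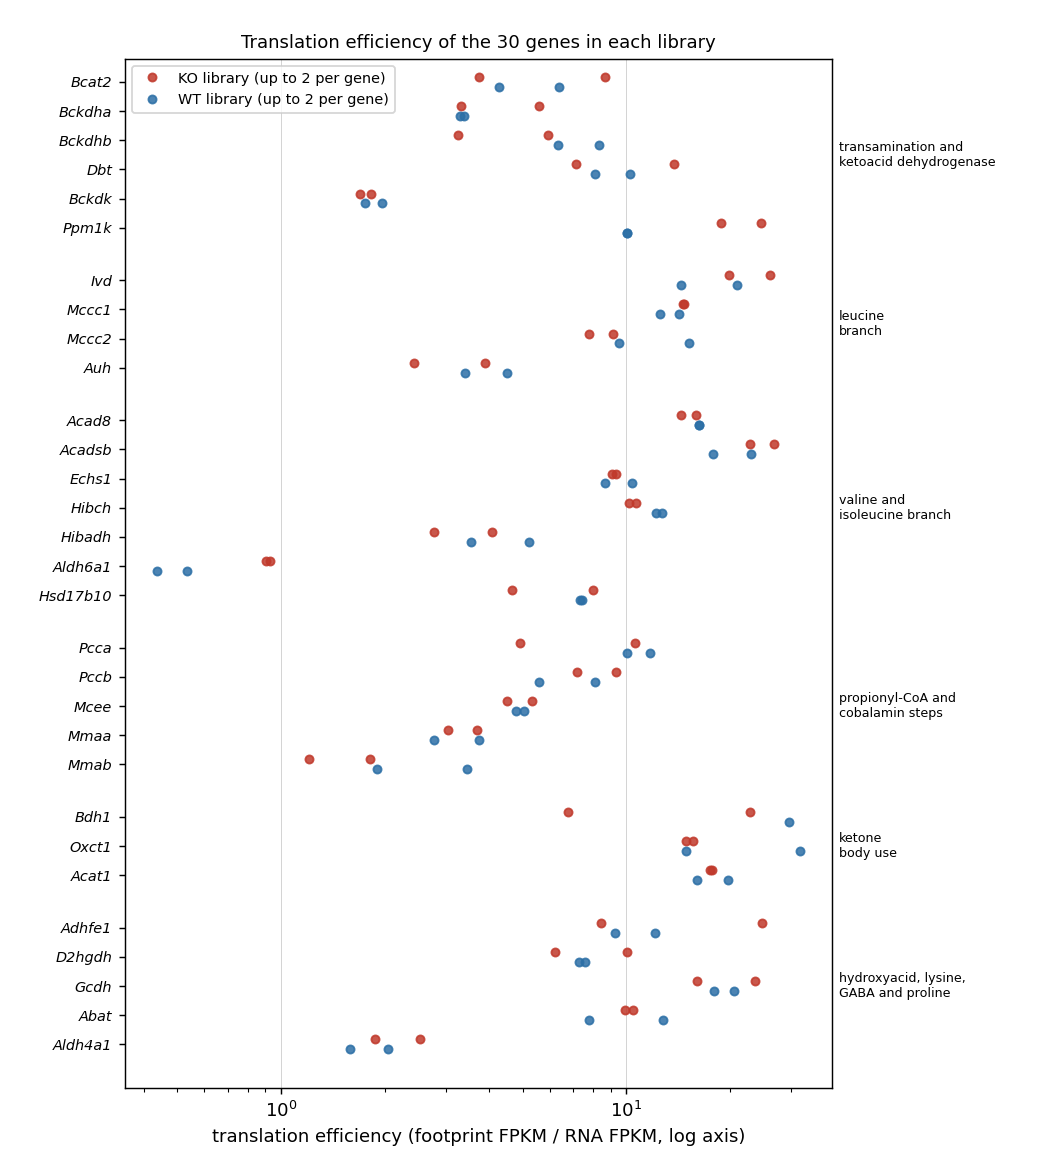
Translation efficiency (footprint FPKM over RNA FPKM, log axis) of the 30 genes with 1 point per library, KO above WT in each row; Bdh1 has no value in WT replicate 1. Aldh6a1 lies lowest, at 0.929 and 0.905 in KO and 0.534 and 0.437 in WT, and KO and WT points overlap in 21 of the 29 genes tested.

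Translation efficiency varied far more among the enzymes than between the groups. It ran from 0.905 for Aldh6a1 to 26.7 for Acadsb in KO replicate 2, and from 0.437 for Aldh6a1 to 31.8 for Oxct1 in WT replicate 2. Bckdk had a low TE, at 1.82 and 1.70 in KO and 1.75 and 1.97 in WT, and so had Aldh4a1, at 2.52 and 1.87 in KO and 1.59 and 2.04 in WT. Subunits of the ketoacid dehydrogenase were alike in part. In KO Bckdha was at 3.31 and 5.60, Bckdhb at 3.26 and 5.91 and Dbt at 7.16 and 13.8. In WT Bckdha was at 3.38 and 3.30, Bckdhb at 6.35 and 8.30 and Dbt at 8.08 and 10.2. No difference between subunits was tested. Groups overlapped in 21 of 29 genes. In 5 genes both KO values lay below both WT values (17.2%, against 12% of all genes), and in 3 above (10.3%, against 24% of all genes). The genes with both KO values above were Ppm1k, Mccc1 and Aldh6a1.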

How the data were processed

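The authors deposited 2 tables of 55382 genes for 4 libraries: footprint FPKM, and translation efficiency, a ratio. The submitters' processing notes name, with no order or role, STAR 2.7.4a, Bowtie 1.3.1, Cufflinks 2.2.1, HTSeq 0.13.5, cutadapt 3.7, FastQC 0.11.9 and the build GRCm38. Not given in the sources used here are the strand setting and the making of the RNA libraries. All 59296 of 59296 quotients of FPKM over TE had 6 or fewer significant digits (within a relative 1e-10), and the quotient was used as the RNA level, with a TE of 0 treated as missing. The 15031 genes that reached an FPKM of 1 in 2 or more libraries were tested as log2(FPKM + 1), which understates the change of low genes. RNA and TE were tested as log2 for the 12529 genes with a TE above 0 in all libraries. limma 3.58.1 in R 4.3.3 (eBayes with a trend, two-sided) was used with Benjamini-Hochberg adjustment over all tested genes, called at 0.05, and was tested on simulated data. An exact permutation test of 2 libraries against 2 cannot go below p = 0.333. Same-numbered libraries deviated together with a correlation of -0.056 in footprints, -0.219 in RNA and -0.018 in TE, so the numbers were not taken as pairs. The members and lists were chosen with earlier results of these data known. From the further lists, genes that passed and those with the highest and lowest footprint difference are named. The result of 1 further gene is not reported here.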

Additional observations from a re-analysis of the deposited data

How the results depend on the processing

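The lower reading of the 30 genes relative to all genes kept its direction in footprints and RNA under each alternative that can move it. The calls changed between settings. The replicate block and the fit with no mean-variance trend leave that median difference unchanged by construction. In RNA, so do median-ratio scaling and the crossed replicate block given below. In footprints 57 genes passed, and 34 with a pseudocount of 0.1, 8 with no filter on low values, 223 without small RNA genes and unnamed models, 36 with no mean-variance trend, 143 with the replicate block and 0 when any 1 library was left out. The 1 member called, Adhfe1, became 0 with a pseudocount of 0.1, no filter, no trend or any library left out. In RNA 718 genes passed, and 67 with no trend, 1429 with the replicate block and 704 to 3742 with a library left out. Members called there were 3, and 5 with median-ratio scaling, 0 with no trend and 1 to 10 with a library left out. With the replicate block Bckdha lost its RNA call (adjusted p = 0.074). A crossed replicate block, chosen after seeing the data, gave 3241 genes and 10 members in RNA. In TE 0 genes passed, and 1 at a mean FPKM of at least 10, 1 without small RNA genes and unnamed models, 1 with no trend, 178 with the replicate block and 0 to 33 with a library left out. No member passed in TE under these settings. The members' median relative to all genes ran, with a library left out, from -0.96 to -0.77 in footprints, from -0.72 to -0.43 in RNA and from -0.35 to 0.016 in TE. Median-ratio scaling moved the median log2 difference of all genes to 0.03 in footprints, 0.0043 in RNA and -0.00069 in TE. It turned footprint log2 differences to -0.30 for Acad8, -0.14 for Acadsb, -0.28 for Bcat2, -0.35 for Dbt and -0.35 for Pccb, and RNA differences to -0.042 for Acad8 and -0.14 for Oxct1. With a library left out, footprint differences ran from -0.39 to 0.57 for Bcat2, -0.42 to 0.028 for Bckdk, -0.45 to 0.50 for Dbt, -0.28 to 0.22 for Klf15, -0.57 to 0.018 for Mmaa, -0.28 to 0.32 for Pccb and -0.93 to 0.16 for Ppm1k. RNA differences ran from -0.15 to 0.050 for Acadsb, -0.34 to 0.27 for Bcat2, -0.26 to 0.021 for Bckdk, -0.35 to 0.14 for Dbt, -0.25 to 0.095 for Hsd17b10, -0.49 to 0.64 for Oxct1 and -0.51 to 0.30 for Pcca. TE differences ran from -0.32 to 1.22 for Adhfe1 and -0.011 to 0.74 for Bckdha. The cause of these moves was not tested. Read depth is unknown, so no counting interval can be given.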
